A study of Mus musculus with 31 samples.

Results

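The enzymes of heme synthesis were followed through an allelic series of Etv2, an ETS transcription factor gene needed for blood and endothelial development, in mouse yolk sacs at embryonic day 8.5. The members were chosen by symbol, as the rows named Alas1, Alas2, Alad, Uros, Urod, Cpox, Ppox and Fech, which are 8 of the 18477 genes in the deposited table. All 8 were found, and no filter on low values was applied to them.

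Total RNA of single yolk sacs was sequenced as 31 libraries, 6 from Etv2 +/+, 4 from Etv2 +/enhΔ, 6 from Etv2 +/Δ, 5 from Etv2 enhΔ/enhΔ, 5 from Etv2 enhΔ/Δ and 5 from Etv2 Δ/Δ embryos. The Δ allele lacks exons 4 and 5, which encode the DNA binding domain, after Cre deletion in the germline, and is thus present in every cell. The enhΔ allele lacks an enhancer upstream of Etv2 and was made by genome editing in a pair of founder lines, and the labels do not say which line a yolk sac came from. All embryos came from matings among heterozygotes of the 2 alleles on a mixed background and were matched by somite number, with both sexes labelled in each group. The labels do not name litters, so p-values measure the spread between these yolk sacs. Below, Etv2 +/+ is also called wild type, Etv2 enhΔ/Δ the compound mutant and Etv2 Δ/Δ the null.

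Reads counted in genes ranged from 2671612 to 22396340 per library, with a median of 13894962, so that 1 read was worth 0.0440 to 0.378 CPM (counts scaled to the total of the library). Reads of Ftl2-ps, a ferritin pseudogene, set apart 8 libraries at 36.5 to 50.2 CPM, all of them Etv2 +/+ or Etv2 +/enhΔ, from the other 23 at no more than 0.515 CPM. Only replicate 1 of Etv2 +/+ and replicate 1 of Etv2 +/enhΔ were in the low set with all libraries of the other 4 genotypes, so this split and the comparison with wild type can hardly be told apart, whereas comparisons with Etv2 +/Δ lie within the low set. Of 11 libraries labelled male, 4 carried Xist at over 10 CPM and at most 0.258 CPM of Y-linked reads. They were null replicates 1 and 2 and Etv2 +/Δ replicates 2 and 3, so no Etv2 +/Δ library read as male. Below they are called the 4 libraries labelled male that carried Xist reads, and the main results that rest on them are given with and without them. Etv2 itself was counted at 3 to 56 reads per library with a Δ allele and 0 to 7 without, and since the gene count includes the exons that remain, it does not check the genotypes. The labelled tissue was checked by its markers: the summed level of 8 visceral endoderm genes was 34432 to 63597 CPM in every library, and the erythroid markers are given with the results below.

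Heme is assembled from glycine and succinyl-CoA by a chain of enzymes that starts in the mitochondrion, passes through the cytosol and ends in the mitochondrion again. The first step, 5-aminolevulinate synthase, sets the rate and has a pair of genes: Alas1 serves all tissues and is repressed by heme, whereas Alas2 is X-linked and specific to erythroid cells, where its transcription depends on factors such as Gata1 and its translation on iron. Enzymes of the cytosol, among them Alad, Uros and Urod, then build and trim the porphyrin ring, Cpox and Ppox oxidise it in the mitochondrion, and Fech inserts the iron. In the yolk sac at this stage, primitive erythroid cells make heme for the embryonic globins.

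Alas2 was lower than wild type in the compound mutant and lower again in the null, whereas the levels of Alas1 overlapped in all 6 genotypes. On the log2(CPM + 1) scale, Alas2 was 13.4-fold lower than wild type in the null and 3.76-fold lower in the compound mutant. Every other member except Alas1 fell in the null too, by 2.21-fold to 3.41-fold. In the fit over all genes (limma on log2(CPM + 1), calls at an adjusted p under 0.05), 7 of 8 members were called lower in the null, where 7.69% of all genes were. In the compound mutant, 5 of 8 were, where 0.990% of all genes were. Both counts were the same without the 4 libraries labelled male that carried Xist reads. With a term for the Ftl2-ps split they were 6 in the null and 3 in the compound mutant, while the genes called lower over the whole table went from 1420 to 588 and from 183 to 69. Only 1 of 8, Alas2, was lower in the null than in the compound mutant, where 3.36% of all genes were. No member was called higher in any of the 9 comparisons made, while 5.60% of all genes were higher than wild type in the null and 0.336% in the compound mutant.

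Alas2 (X:146981918-147005181, plus strand, mm9) was read at 16.1 CPM at the lowest, 28.3 at the median and 37.8 at the highest in the 6 Etv2 +/+ libraries. In Etv2 +/enhΔ, its level was 36.0, 32.3, 26.7 and 22.1 CPM. In Etv2 +/Δ, the lowest, median and highest were 16.5, 19.6 and 34.0 CPM. These 3 groups overlapped throughout. The Etv2 enhΔ/enhΔ libraries held 19.0, 25.6, 12.7, 8.34 and 16.4 CPM, so that replicates 3 and 4 lay below every wild-type library and the other 3 within the wild-type range. The compound mutant libraries held 7.91, 7.49, 10.7, 4.76 and 4.01 CPM, all below the wild-type range. The null libraries held 0.756, 1.36, 1.82, 1.03 and 1.04 CPM, which is 88 reads over the 5 libraries and 2 reads in the shallowest, and none reached the lowest compound mutant library. As a share of the wild-type mean, Alas2 was 104% ± 21.7 (SD, n = 4) in Etv2 +/enhΔ, 77.6% ± 23.5 (n = 6) in Etv2 +/Δ, 58.3% ± 23.2 (n = 5) in Etv2 enhΔ/enhΔ, 24.8% ± 9.51 (n = 5) in the compound mutant and 4.27% ± 1.44 (n = 5) in the null. In bulk tissue, fewer erythroid cells and less RNA per cell cannot be told apart.

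Alas1 (9:106135786-106150457, minus strand) had 26.4 ± 4.15 CPM in Etv2 +/+ (SD, n = 6), with a lowest, median and highest library of 20.1, 26.6 and 32.1. The Etv2 enhΔ/enhΔ libraries were the most even, at 26.7, 25.7, 27.0, 25.9 and 24.4 CPM. The compound mutant libraries held 25.5, 17.8, 33.2, 27.8 and 26.5 CPM, and the null libraries 29.1, 32.1, 25.1, 28.0 and 20.5. All 6 genotypes overlapped, and their means ran from 25.9 to 27.0 CPM. The fitted difference between the null and Etv2 +/+ was 0.04 (SE 0.17, limma adjusted p = 0.917), with a 95% interval of 0.808 to 1.32 times wild type on the log2(CPM + 1) scale. For the compound mutant the interval was 0.780 to 1.25 times wild type. A change of Alas1 as large as that of any other member in the null lies outside these intervals.

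**Figure D1:**
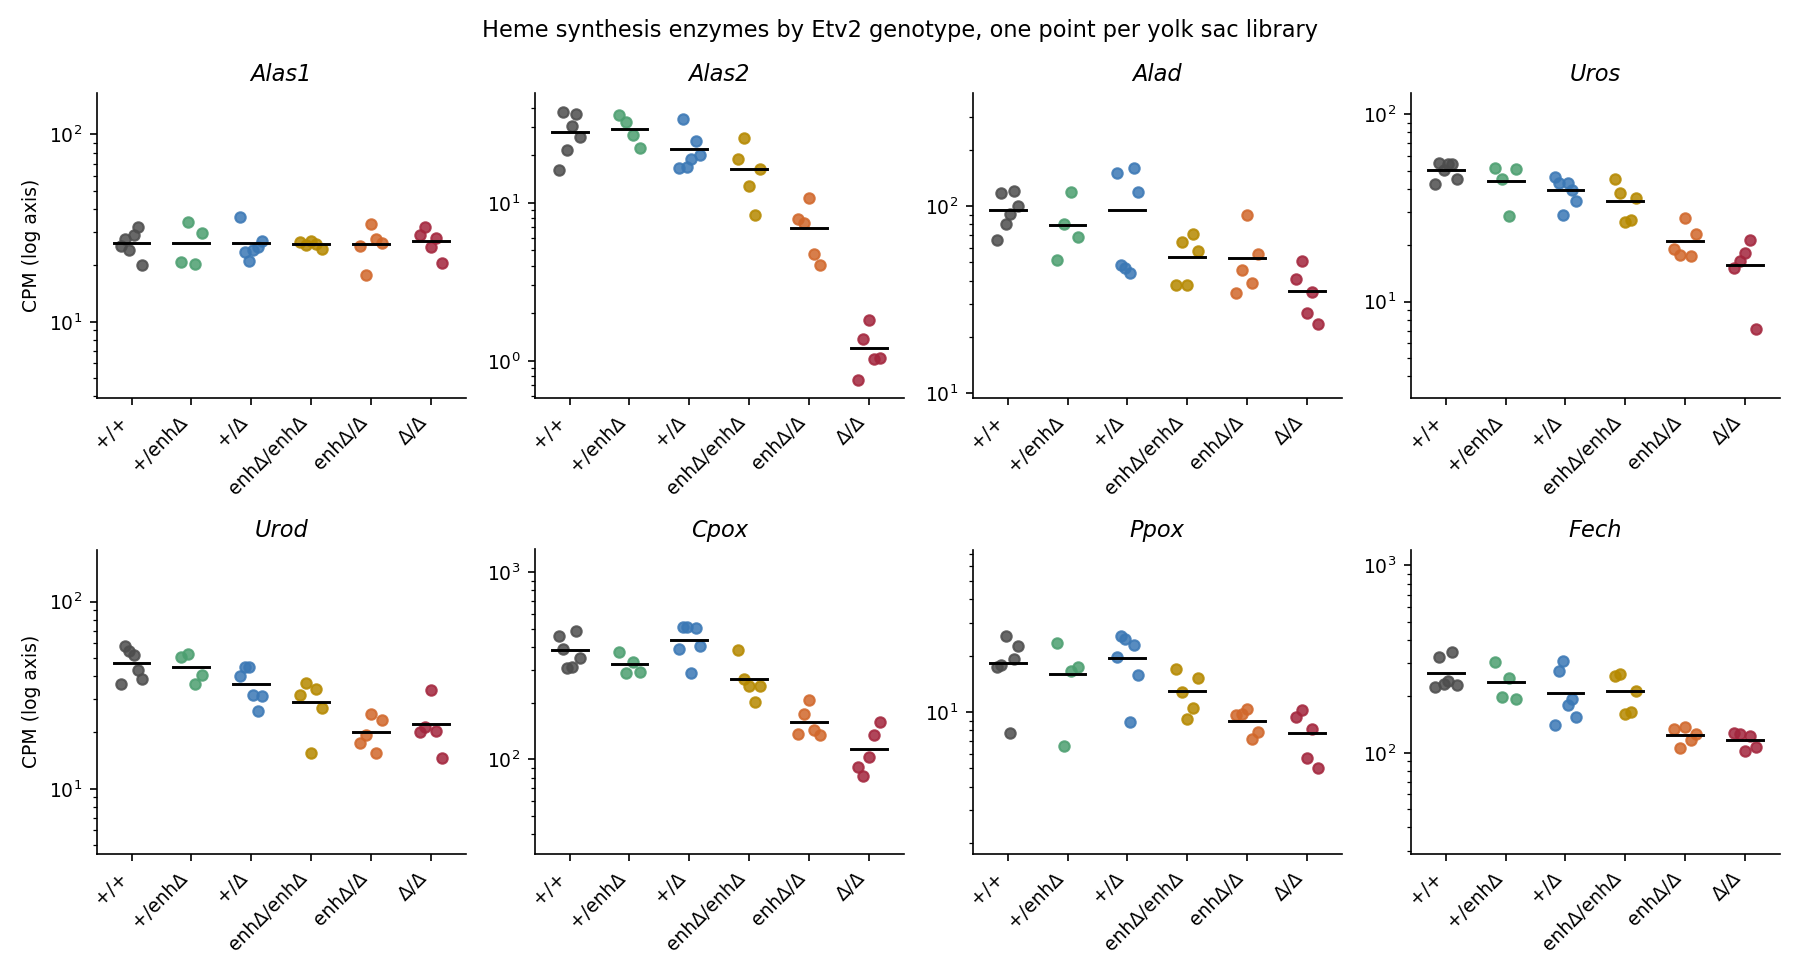
Level of each of the 8 enzymes in CPM (vertical log axis, scaled for each gene) by Etv2 genotype, with 1 point per library in replicate order and a line at the mean. Alas1 stays between 17.8 and 36.4 CPM in all 31 libraries, whereas all 5 Etv2 Δ/Δ libraries hold less than 2 CPM of Alas2 and the other 6 enzymes descend by smaller steps.

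Alas1 and Alas2 catalyse the same step and were compared within each library. Per kilobase of exon, Alas2 was 1.91 ± 0.486 times Alas1 in Etv2 +/+ (SD, n = 6), 2.12 ± 0.774 times in Etv2 +/enhΔ (n = 4), 1.55 ± 0.595 times in Etv2 +/Δ (n = 6), 1.14 ± 0.460 times in Etv2 enhΔ/enhΔ (n = 5), 0.493 ± 0.202 times in the compound mutant (n = 5) and 0.0820 ± 0.0314 times in the null (n = 5). Alas2 exceeded Alas1 per kilobase in all 6 wild-type libraries, where the lowest ratio was 1.13, and was below it in all 5 compound mutant libraries, where the highest was 0.755. Alas2 minus Alas1, in log2, differed from wild type by −3.72 in the null and by −1.85 in the compound mutant (two-sided exact permutation tests, p = 0.00216 each, the smallest that 462 regroupings allow, 0.00649 after adjustment over the 9 comparisons). The 1 added to the CPM compresses this difference where Alas2 is near 1 CPM, and on the log2(CPM + 0.25) scale the null differed from wild type by −4.30. The null differed from the compound mutant by −1.86 (exact p = 0.00794, the smallest that 252 regroupings allow, adjusted p = 0.0143).

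The difference from Etv2 +/Δ was −1.53 in the compound mutant (exact p = 0.00433, adjusted p = 0.00974) and −3.39 in the null (exact p = 0.00216, adjusted p = 0.00649). Etv2 enhΔ/enhΔ lay between wild type and the compound mutant. It differed from wild type by −0.76 (exact p = 0.0303, adjusted p = 0.0390), and the compound mutant differed from it by −1.09 (exact p = 0.0159, adjusted p = 0.0238). Both of these intermediate calls were fragile: the first was lost in 9 of the 11 tests that left out a library (all but those without Etv2 +/+ replicate 1 or Etv2 enhΔ/enhΔ replicate 2), with adjusted p up to 0.0980, and the second without Etv2 enhΔ/enhΔ replicate 1, 2, 3 or 5, with adjusted p up to 0.0595. The heterozygotes did not pass, with differences from wild type of 0.11 in Etv2 +/enhΔ (adjusted p = 0.695, exact test) and −0.32 in Etv2 +/Δ (adjusted p = 0.275, exact test). Without the 4 libraries labelled male that carried Xist reads, the null differed from wild type by −3.53 (adjusted p = 0.0321, exact test), from Etv2 +/Δ by −3.01 (adjusted p = 0.0390, exact test) and from the compound mutant by −1.67 (adjusted p = 0.0321, exact test). The compound mutant then differed from Etv2 +/Δ by −1.34 (adjusted p = 0.0321, exact test).

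**Figure D2:**
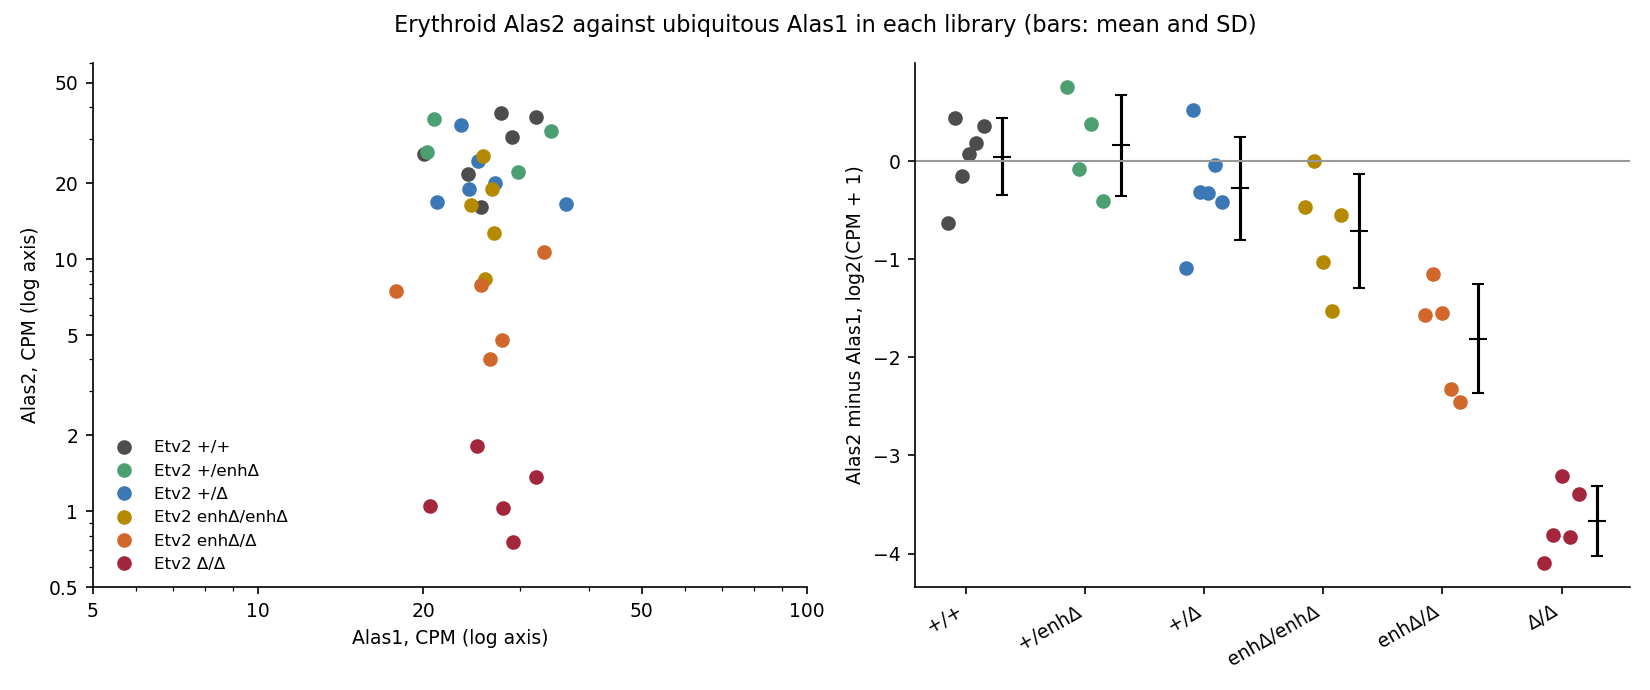
Left, Alas2 against Alas1 in CPM (both log axes), 1 point per library, coloured by genotype; right, Alas2 minus Alas1 as a difference of log2(CPM + 1) values by genotype, with the mean and SD beside the points. The compound mutant (Etv2 enhΔ/Δ) and the null (Etv2 Δ/Δ) separate from Etv2 +/+ along Alas2 and not along Alas1, and the other genotypes overlap it. The mean difference is 0.05 in Etv2 +/+, −1.81 in the compound mutant and −3.67 in the null.

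In the limma F test over the 6 genotypes, 7 of the 8 members passed, where 12.1% of all genes did. The count was 6 with voom, 6 with a term for the Ftl2-ps split and 6 without the 4 libraries labelled male that carried Xist reads. Alas2 ranked 48 and Cpox 79 among 18477 genes by the F statistic, and Alas1 ranked 18413. The 8 members had a median log2 fold change of −1.31 in the null and −1.17 in the compound mutant, while the medians over all genes were −0.01 and 0.01.

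Alas2 itself had a log2 fold change of −3.75 in the null (SE 0.27, adjusted p = 3.07e-12) and −1.91 in the compound mutant (SE 0.27, adjusted p = 2.82e-05). The null and the compound mutant differed in Alas2 by −1.83 (SE 0.28, adjusted p = 2.69e-05), and by −1.74 (adjusted p = 0.000893) without the 4 libraries labelled male that carried Xist reads. Cpox, at −0.51 (adjusted p = 0.118), also passed when null replicate 5 was left out (−0.66, adjusted p = 0.0261). The remaining 6 members differed by −0.50 to 0.07, with Fech at −0.13 and a 95% interval of 0.720 to 1.15 times the level in the compound mutant, and Urod at 0.07 with an interval of 0.777 to 1.41.

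To show what lies upstream of the synthase genes and of Cpox, the most abundant member, the 250 bases before the annotated start site were read from RefSeq (GRCm38.p6). Capitals mark matches on either strand to the GATA factor motif, spelled AGATAA or AGATAG and also TGATAA or TGATAG, and to the CACC box bound by Klf1 and related factors, spelled CCNCNCCC. For Alas1, which has 2 annotated start sites in the table, the upstream one was used. The windows are chrX:150547167-150547416 on the plus strand for Alas2, chr16:58669958-58670207 on the plus strand for Cpox and chr9:106247955-106248204 on the minus strand for Alas1.
Alas2: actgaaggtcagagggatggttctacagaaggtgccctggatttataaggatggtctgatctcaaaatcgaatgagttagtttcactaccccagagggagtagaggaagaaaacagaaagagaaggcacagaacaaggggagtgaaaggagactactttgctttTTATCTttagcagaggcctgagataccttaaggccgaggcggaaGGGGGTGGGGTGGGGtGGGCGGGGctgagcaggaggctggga
Cpox: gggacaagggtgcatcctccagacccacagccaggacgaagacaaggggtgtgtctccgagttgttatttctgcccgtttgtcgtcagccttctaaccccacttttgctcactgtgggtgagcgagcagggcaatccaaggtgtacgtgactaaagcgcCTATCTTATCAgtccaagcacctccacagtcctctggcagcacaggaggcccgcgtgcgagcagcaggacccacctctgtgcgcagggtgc
Alas1: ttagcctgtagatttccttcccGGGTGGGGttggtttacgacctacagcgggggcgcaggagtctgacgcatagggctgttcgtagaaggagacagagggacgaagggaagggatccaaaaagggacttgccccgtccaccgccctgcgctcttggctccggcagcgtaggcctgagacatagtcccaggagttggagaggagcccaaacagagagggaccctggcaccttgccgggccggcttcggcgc
Alas2 had 1 GATA match at positions −86 to −81 and 4 CACC matches between −42 and −19, of which the first 3 overlap. Cpox had 2 GATA matches that share a base, from −91 to −81, and no CACC match. Alas1 had no GATA match and 1 CACC match at −228 to −221. Of 32851 mouse promoter windows of the same length, 26.5% held a GATA match, 6.4% held 2 or more, and 45.9% held a CACC match, so each match is a description of these letters only.

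**Figure D3:**
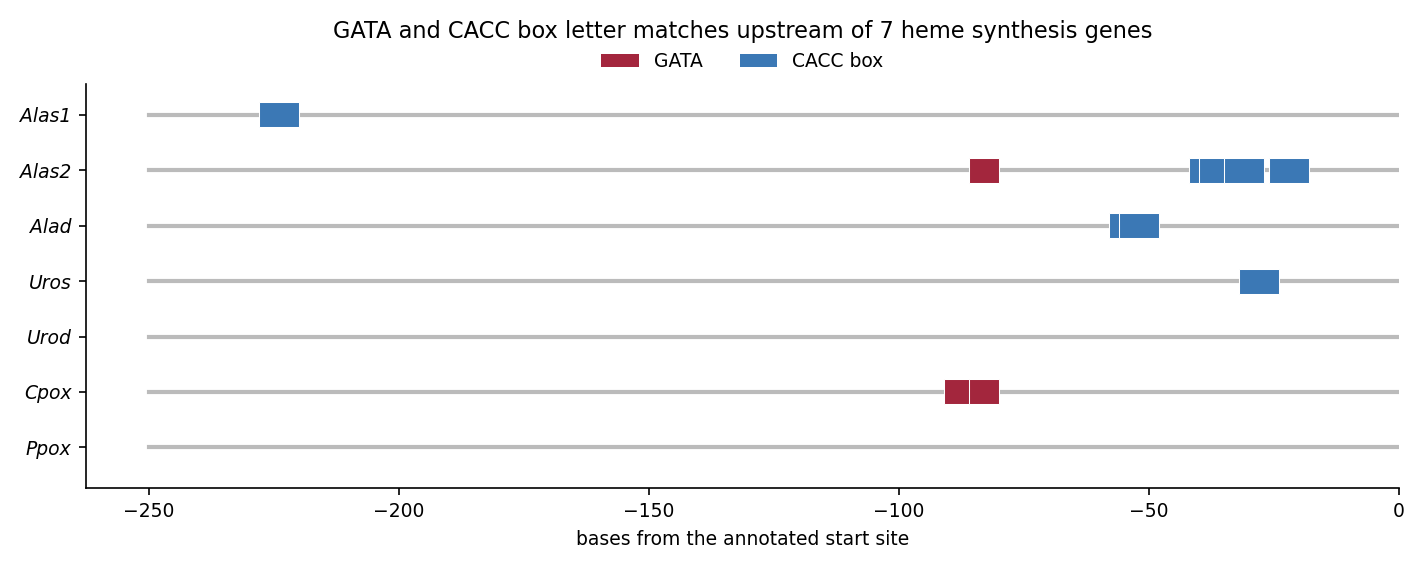
Positions of GATA motif and CACC box matches in the 250 bases upstream of the annotated start site of 7 members (horizontal axis, bases from the start site), with 1 line per gene. Of these 7, only Alas2 and Cpox hold a GATA match, within −91 to −81. CACC matches occur in Alas1, Alas2, Alad and Uros, and Urod and Ppox hold neither. Fech was not searched, so whether it holds a match is not known.

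Among the enzymes of the cytosol, Uros and Urod fell in both mutants and Alad in the null. Uros (7:140877926-140901755, minus strand), uroporphyrinogen III synthase, which closes the ring, held 42.4, 52.1 and 55.3 CPM as the lowest, median and highest wild-type library. It held 19.0, 17.7, 27.8, 17.5 and 23.0 CPM in the compound mutant and 15.1, 16.5, 18.1, 21.4 and 7.14 in the null. No library of either mutant reached the wild-type range. The log2 fold changes were −1.25 (SE 0.20, adjusted p = 0.000231) and −1.73 (SE 0.21, adjusted p = 2.29e-07). Urod (4:116662570-116667018, minus strand), the decarboxylase that follows, went from 47.1 ± 9.01 CPM in Etv2 +/+ (SD, n = 6) to 20.2 ± 3.91 in the compound mutant (n = 5) and 22.1 ± 7.12 in the null (n = 5), and so was no lower in the null than in the compound mutant. Its log2 fold changes were −1.21 (SE 0.20, adjusted p = 0.000422) and −1.14 (SE 0.21, adjusted p = 0.000225), and the highest mutant library, null replicate 3 at 33.9 CPM, lay just below the lowest wild-type library at 36.1. With a term for the Ftl2-ps split, the compound mutant calls of Uros (−1.26, adjusted p = 0.0525) and Urod (−1.10, adjusted p = 0.110) were lost.

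Alad (4:62170203-62180952, minus strand), which condenses aminolevulinate to porphobilinogen, held 65.9, 95.2 and 120 CPM as the lowest, median and highest wild-type library. In Etv2 +/Δ its 6 libraries held 150, 48.7, 46.6, 43.7, 160 and 119 CPM, so that 3 lay below the lowest wild-type library and 2 above the highest. The null libraries held 40.8, 51.1, 26.9, 34.7 and 23.5 CPM, all below wild type (log2 fold change −1.35, SE 0.32, adjusted p = 0.00337). The compound mutant libraries held 34.3, 45.7, 89.4, 38.6 and 55.8 CPM, and replicate 3 lay within the wild-type range (−0.86, SE 0.31, adjusted p = 0.214). Once a term for the Ftl2-ps split was added, Alad no longer passed in the null either (−0.84, adjusted p = 0.356). Against Etv2 +/Δ, within 1 Ftl2-ps state, it passed in the null, where 4 of 5 libraries lay below all Etv2 +/Δ libraries and replicate 2 above the 3 low ones.

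Of the mitochondrial enzymes at the end of the pathway, Cpox and Fech were the most abundant members and fell in both mutants. Cpox (16:58670321-58680504, plus strand), coproporphyrinogen oxidase, held 308, 369 and 487 CPM as the lowest, median and highest wild-type library. The compound mutant libraries held 136, 175, 207, 143 and 136 CPM and the null libraries 91.1, 81.3, 104, 136 and 158. All 10 mutant libraries lay below the wild-type range, and the mutants overlapped each other. Its log2 fold changes were −1.26 (SE 0.18, adjusted p = 2.82e-05) and −1.77 (SE 0.18, adjusted p = 7.95e-09). In Etv2 +/Δ, Cpox was 434 ± 89.3 CPM (SD, n = 6), a log2 difference of 0.17 from wild type that did not pass.

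Fech (18:64616204-64648720, minus strand), ferrochelatase, held 224, 237 and 343 CPM as the lowest, median and highest wild-type library. It held 134, 106, 137, 117 and 126 CPM in the compound mutant and 127, 126, 102, 123 and 107 in the null. Both mutants lay below every wild-type library and at one level with each other, at 46.7% ± 4.87 (SD, n = 5) and 44.0% ± 4.35 (n = 5) of the wild-type mean. The log2 fold changes were −1.14 (SE 0.16, adjusted p = 3.46e-05) and −1.27 (SE 0.16, adjusted p = 8.80e-07). Ppox (1:173206121-173211317, minus strand), protoporphyrinogen oxidase, was the least abundant member per kilobase in wild type. It held 17.3, 17.9, 25.4, 7.71, 19.2 and 22.4 CPM in Etv2 +/+, with replicate 4 far below the rest. It held 9.66, 9.73, 10.3, 7.21 and 7.83 CPM in the compound mutant and 9.45, 10.2, 5.67, 8.13 and 5.05 in the null. Only that 1 wild-type library overlapped the mutants. Ppox was called in the null (−1.21, SE 0.30, adjusted p = 0.00505) and not in the compound mutant (−0.94, SE 0.29, adjusted p = 0.111). There it passed once Etv2 +/+ replicate 4 was left out (−1.14, adjusted p = 0.0267). It also passed without Etv2 +/enhΔ replicate 2, a library of neither group (−0.97, adjusted p = 0.0409), so the call was borderline.

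Some exons are shared with genes on the opposite strand, and the strand setting of the read counting is not given in the sources used here. Of the exon bases of Ppox, 17.5% overlap B4galt3, and of those of Alas2, 12.9% overlap Apex2. The overlap was 2.65% for Alas1 with 4930500F10Rik and none for the other members.

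**Figure D4:**
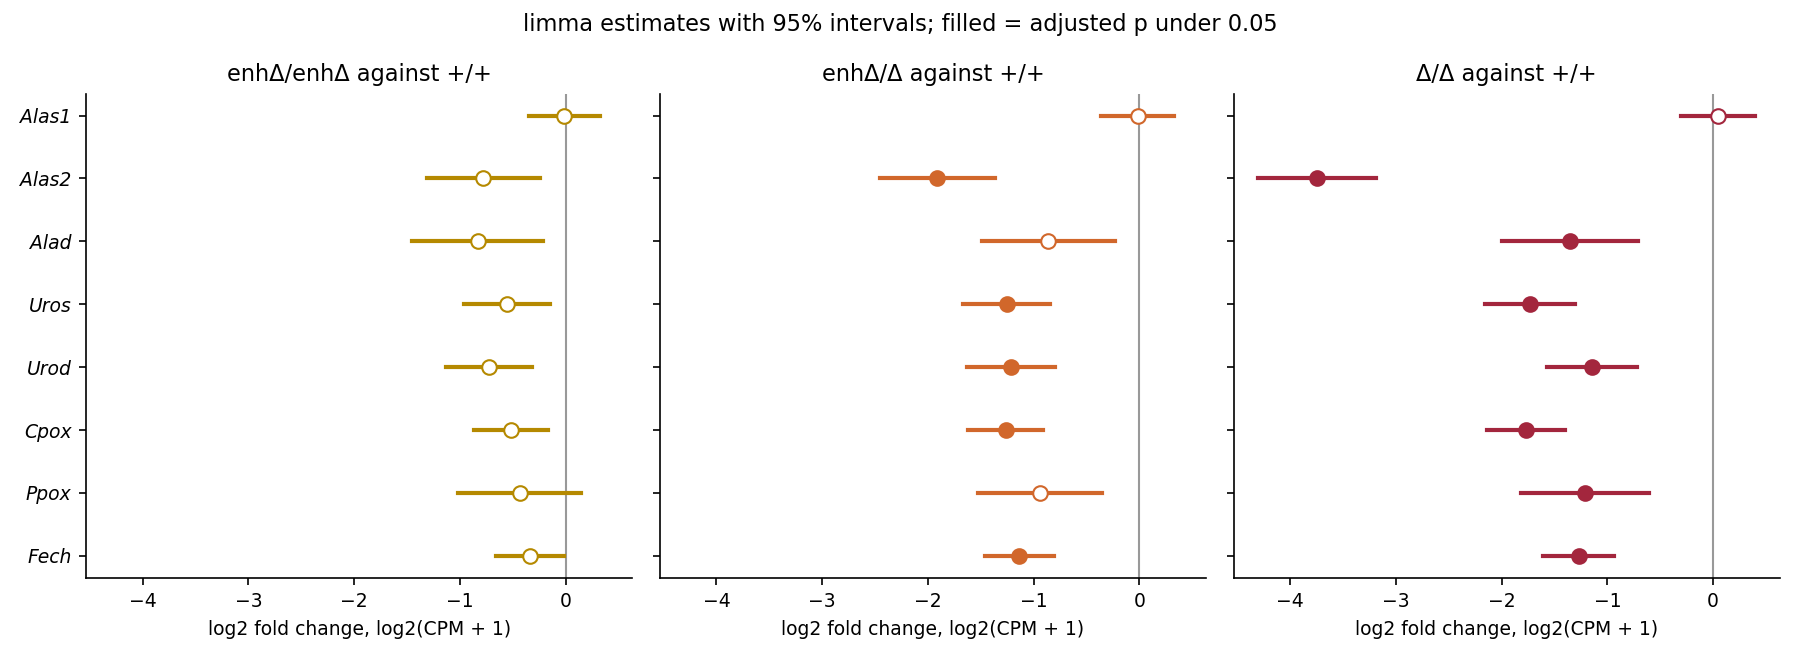
Log2 fold change of each member against Etv2 +/+ (horizontal axis, difference of log2(CPM + 1) from limma) with its 95% interval, in 1 panel each for Etv2 enhΔ/enhΔ, the compound mutant (Etv2 enhΔ/Δ) and the null (Etv2 Δ/Δ), filled where the adjusted p was under 0.05. Alas1 sits near 0 in all 3 panels, Alas2 moves from −0.78 through −1.91 to −3.75, and the others lie near −1 to −2 in the last panel.

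Per kilobase of exon, the levels of the members in Etv2 +/+ ran from Cpox at 120 ± 23.5 CPM (SD, n = 6) through Fech at 91.7 ± 18.2, Alad at 51.2 ± 11.3, Urod at 18.2 ± 3.48, Uros at 14.1 ± 1.5, Alas2 at 11.7 ± 3.54 and Alas1 at 6.13 ± 0.964 to Ppox at 4.06 ± 1.34. Of the neighbours in this order, only Fech and Alad, and Alad and Urod, did not overlap between libraries. In the compound mutant, Alas2 was seventh, at 2.90 ± 1.11 per kilobase, below Alas1 at 6.07 ± 1.29 (n = 5 each). In the null it was the last of the 8, at 0.50 ± 0.169, and Fech at 40.3 ± 3.99 and Cpox at 35.8 ± 10.1 overlapped (n = 5 each). The summed level of the 8 members was 916 ± 136 CPM in Etv2 +/+ (n = 6), 419 ± 68.9 in the compound mutant (n = 5) and 340 ± 20.1 in the null (n = 5). Cpox and Fech together made up 70.8%, 67.9% and 67.9% of that sum on average.

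The comparisons with Etv2 +/Δ asked whether a second altered allele changed the enzymes when a Δ allele was already present. In the null, 7 of 8 members were lower than in Etv2 +/Δ, where 7.59% of all genes were, and in the compound mutant 5 of 8 were, where 0.871% of all genes were. The log2 differences of Alas2 were −3.38 in the null and −1.55 in the compound mutant (SE 0.27 and 0.26, limma adjusted p = 2.01e-11 and 0.000789). Cpox differed by −1.43 in the compound mutant (SE 0.17, adjusted p = 8.10e-06). The calls of Fech (−0.71, adjusted p = 0.0157), Uros (−0.88, adjusted p = 0.0183) and Urod (−0.83, adjusted p = 0.0302) in the compound mutant were weaker. With only the groups compared in the fit, Alad (adjusted p = 0.109) and Urod (adjusted p = 0.0520) were lost in the null, and Fech (adjusted p = 0.0720) in the compound mutant. Without the 4 libraries labelled male that carried Xist reads, Fech, Uros and Urod were lost in the compound mutant, which left 2 of 8, and Urod in the null, which left 6 of 8. The count in the compound mutant also fell to 2 or 3 when Etv2 +/Δ replicate 1, 2 or 3 or compound mutant replicate 1, 2 or 4 was left out.

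The compound mutant was also set against Etv2 enhΔ/enhΔ, which carries the enhancer deletion on both alleles. There 3 of 8 members were lower, where 1.01% of all genes were: Alas2 at −1.13 (SE 0.28, limma adjusted p = 0.0204), Fech at −0.80 (SE 0.17, adjusted p = 0.00721) and Cpox at −0.75 (SE 0.18, adjusted p = 0.0204). The count fell to 1 without Etv2 enhΔ/enhΔ replicate 1 or compound mutant replicate 4 or 5, and to 0 with only these 2 groups in the fit or with the share of mitochondrial reads, which was 10.5% to 20.9% in Etv2 enhΔ/enhΔ and 7.55% to 10.2% in the compound mutant, as a term. The part of that share in the result was not tested further.

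In Etv2 enhΔ/enhΔ against Etv2 +/+, 0 of 8 members passed in limma, where 0.0162% of all genes were called lower, and 0 passed in voom. All 8 were below 0, with a median of −0.53, and 6 had an unadjusted p under 0.05, as did 1319 of all 18477 genes, led by Urod at −0.72 (SE 0.20, adjusted p = 0.420), Cpox at −0.52 (SE 0.17, adjusted p = 0.571) and Alas2 at −0.78 (SE 0.26, adjusted p = 0.571). In Etv2 +/Δ, 0 of 8 passed in limma and in voom and 1 had an unadjusted p under 0.05, where 0.0216% of all genes were called lower and 1067 had an unadjusted p under 0.05, and the members ran from −0.43 to 0.17. In Etv2 +/enhΔ, 0 of 8 passed in limma and in voom and 0 had an unadjusted p under 0.05, where 0% of all genes were called lower and 821 had an unadjusted p under 0.05, and the members ran from −0.30 to 0.05.

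Against Etv2 +/+, the fitted levels of primitive erythroid markers fell in both mutants, as did those of the members other than Alas1. The 10 markers, among them the embryonic globins Hbb-y, Hbb-bh1 and Hba-x, summed to 1571 to 5754 CPM in Etv2 +/+, 489 to 2724 in Etv2 enhΔ/enhΔ, 462 to 2355 in the compound mutant and 7.88 to 70.3 in the null. All 10 were lower in the null than in wild type, where 7.69% of all genes were. In the compound mutant 9 were, where 0.990% of all genes were. The medians of the 10 markers were −6.10 and −2.29. In the null against the compound mutant, all 10 were lower (median −3.83), where 3.36% of all genes were. Of the members, only Alas2 was called in that comparison, so most enzymes did not follow the markers over this step. The part of these markers in the fall of the enzymes was not tested. Within the compound mutant, replicate 3 had the highest marker sum and also the highest Alas2, Alad, Uros, Urod, Cpox, Ppox, Fech and Alas1. After the genotype means were subtracted, Alas2, Cpox and Fech correlated with the log2 of the marker sum at r = 0.59, 0.57 and 0.53 (31 libraries). The other members did not follow it as closely, with Urod at 0.16, Ppox at 0.14, Alad at 0.08, Uros at −0.0006 and Alas1 at −0.09. Set against the log2 of the marker sum, Alas2 lay at −6.96 ± 0.320 in Etv2 +/+ (SD, n = 6) and −6.51 ± 0.693 in the compound mutant (n = 5), but at −3.00 ± 1.32 in the null (n = 5). Null libraries held only 0.756 to 1.82 CPM of Alas2, so the 1 added to the CPM moves this last value toward 0. The difference of Cpox from the marker sum was −3.20 ± 0.795, −2.13 ± 0.785 and 2.69 ± 0.910 in the same 3 groups, and that of Fech −3.73 ± 0.554, −2.48 ± 0.913 and 2.76 ± 1.23 (n = 6, 5 and 5). The visceral endoderm sum was 37971 to 47048 CPM in Etv2 +/+ and 36274 to 63597 in the null. In the null, 1 of its 8 genes, Afp, was called higher, where 5.60% of all genes were. Endothelium markers also moved: their sum over 6 genes was 247 to 379 CPM in Etv2 +/+, 466.2 to 521.5 in the compound mutant and 94.3 to 148 in the null. Of the 6, 5 were called lower in the null (median −2.54), where 7.69% of all genes were. Kdr, 1 of these 5, was called higher in the compound mutant, where 0.336% of all genes were. The sum of 5 extraembryonic mesoderm markers was 365 to 465 CPM in Etv2 +/+, 645 to 927 in the compound mutant and 688 to 1153 in the null. Of these 5, Col3a1 and Postn were called higher in both mutants and Hand1 in the null, where 0.336% (compound mutant) and 5.60% (null) of all genes were. The part of either marker list in the fall of the enzymes was not tested.

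Over the 31 libraries, the levels of the members correlated with Alas2 at r = 0.64 (Alad) to 0.88 (Uros and Cpox), and Alas1 at −0.04. These are descriptions over libraries that share genotypes and scaling. After the genotype means were subtracted, Fech kept r = 0.52, Uros 0.39, Cpox 0.37 and Urod 0.35, while Ppox had 0.13, Alad 0.08 and Alas1 0.03. Among the 10532 genes whose mean log2 reached 2, the 5 most like Alas2 were Cited4 (r = 0.97), Klf1 (0.97), Hemgn (0.97), Add2 (0.96) and Gata1 (0.96). With genotype means subtracted, these had r = 0.56, 0.66, 0.66, 0.73 and 0.45. Klf1 and Gata1 encode erythroid transcription factors and Add2 a protein of the red cell membrane skeleton. The 5 most like Alas1 were Ggh (r = 0.62), Slc26a11 (0.56), Wipi2 (0.54), Mctp2 (0.54) and Nadsyn1 (0.54). With genotype means subtracted, these had r = 0.67, 0.58, 0.65, 0.63 and 0.56. Each set of 5 was picked by r with the genotype differences left in. The values after subtraction therefore cannot compare the neighbours of Alas2 with those of Alas1.

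Of 11 genes for substrate supply and porphyrin transport, 4 were lower in the null against Etv2 +/+, where 7.69% of all genes were, and 3 in the compound mutant, where 0.990% were, with medians of −0.17 and −0.13. Slc25a37, the mitoferrin that brings iron into erythroid mitochondria, was at 404 ± 88.1 CPM in Etv2 +/+ (SD, n = 6), 104 ± 36.6 in the compound mutant (n = 5) and 34.7 ± 28.0 in the null (n = 5). The null libraries held 18.5, 18.04, 25.3, 27.5 and 84.4 CPM, and without replicate 5 their mean was 22.3 ± 4.77 (n = 4). Its log2 fold changes were −1.94 (SE 0.28, adjusted p = 5.32e-05) and −3.65 (SE 0.29, adjusted p = 2.17e-11). It was the 1 gene of this list that was also lower in the null than in the compound mutant (−1.70, SE 0.29, adjusted p = 0.000188). Abcb10, a mitochondrial transporter that partners with it, was at −1.13 and −1.35 (SE 0.14 each, adjusted p = 3.18e-06 and 1.09e-08), and Tmem14c, needed for porphyrin import, at −0.87 and −1.22 (SE 0.15 each, adjusted p = 0.000443 and 4.33e-07). Chosen after their values were seen, Slc25a28, the mitoferrin of other tissues, had 0.43 and 0.30 and Slc25a38, a glycine carrier, 0.16 and −0.13, and neither passed.

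Of 10 regulators of the first step, 3 were lower in each mutant, against 0.990% of all genes in the compound mutant and 7.69% in the null, with medians of −0.09 in the compound mutant and 0.19 in the null. Klf1 had log2 fold changes of −2.26 and −5.44 (SE 0.23 each, adjusted p = 3.09e-07 and 6.15e-18) and Gata1 of −2.10 and −4.34 (SE 0.25 and 0.26, adjusted p = 3.18e-06 and 2.41e-14), and Gata1 had 2.39 to 5.64 CPM in the compound mutant and at most 0.396 in the null, where 3 of 5 libraries held 0 reads of it, so its fold change there depends on the 1 added to the CPM. Eif2ak1, the heme-regulated kinase that limits globin translation, had −0.77 and −1.11 (SE 0.16 each, adjusted p = 0.00478 and 7.63e-06). Klf1 and Gata1 are also among the 10 erythroid markers.

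Of 7 genes that break down or export heme, 1 was lower in the compound mutant and 3 in the null, against 0.990% and 7.69% of all genes, with medians of −0.10 and −0.36. Blvrb, a biliverdin reductase abundant in red cells, had −1.67 and −2.53 (SE 0.31 and 0.32, adjusted p = 0.00175 and 6.86e-07). Flvcr1, first described as a heme exporter, had 0.07 in the compound mutant (adjusted p = 0.954) and −0.72 in the null (SE 0.20, adjusted p = 0.0126), and differed between the mutants (−0.79, SE 0.20, adjusted p = 0.0152). Abcg2, a porphyrin exporter, had −0.36 in the null (SE 0.10, adjusted p = 0.0148). Hmox1, heme oxygenase, which is induced by heme and is named here after its values were seen, was at 46.6 ± 6.86 CPM in Etv2 +/+ (SD, n = 6), 42.0 ± 5.59 in the compound mutant (n = 5) and 45.3 ± 8.61 in the null (n = 5), and did not pass (−0.10 and 0.03).

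Genes that use heme outside globin and genes of iron-sulfur cluster assembly, which every respiring cell needs, were counted in both mutants against wild type. Of 9 heme users, 3 were lower in the null, where 7.69% of all genes were. These were Hccs at −0.78 (SE 0.25, adjusted p = 0.0335), Cox10 at −0.72 (SE 0.19, adjusted p = 0.00850) and Cyc1 at −0.38 (SE 0.11, adjusted p = 0.0245). In the compound mutant 0 passed in limma, where 0.990% of all genes were called lower. There 1 had an unadjusted p under 0.05, as did 2160 of all 18477 genes. Of the 3, Cox10 also differed between the mutants (−0.71, SE 0.19, adjusted p = 0.0206). Of 9 iron-sulfur genes, 4 were lower in the null, where 7.69% of all genes were. Among them were Lyrm4 at −1.0 (SE 0.25, adjusted p = 0.00663), Iscu at −0.91 (SE 0.31, adjusted p = 0.0447) and Glrx5 at −0.47 (SE 0.13, adjusted p = 0.0123). In the compound mutant 0 were lower in limma, where 0.990% of all genes were, with 0 at an unadjusted p under 0.05. Set directly against the compound mutant, the null had 0 of 9 iron-sulfur genes called in limma, where 3.36% of all genes were called lower. There 3 had an unadjusted p under 0.05, as did 3143 of all 18477 genes, so these 9 genes were not shown to differ between the mutants. No gene of the 5 heme lists was called higher in either mutant than in wild type, where 5.60% of all genes were in the null and 0.336% in the compound mutant. Named after their values were seen, Cat, the heme enzyme catalase, was higher in the null than in Etv2 +/Δ (0.58, SE 0.15, adjusted p = 0.00649) and than in the compound mutant (0.61, SE 0.15, adjusted p = 0.0143), and Aco1, an iron-responsive RNA-binding protein, was higher in the compound mutant than in Etv2 enhΔ/enhΔ (0.56, SE 0.15, adjusted p = 0.0447). Fech itself carries an iron-sulfur cluster and Iscu, Glrx5 and Lyrm4 help to build such clusters.

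**Figure D5:**
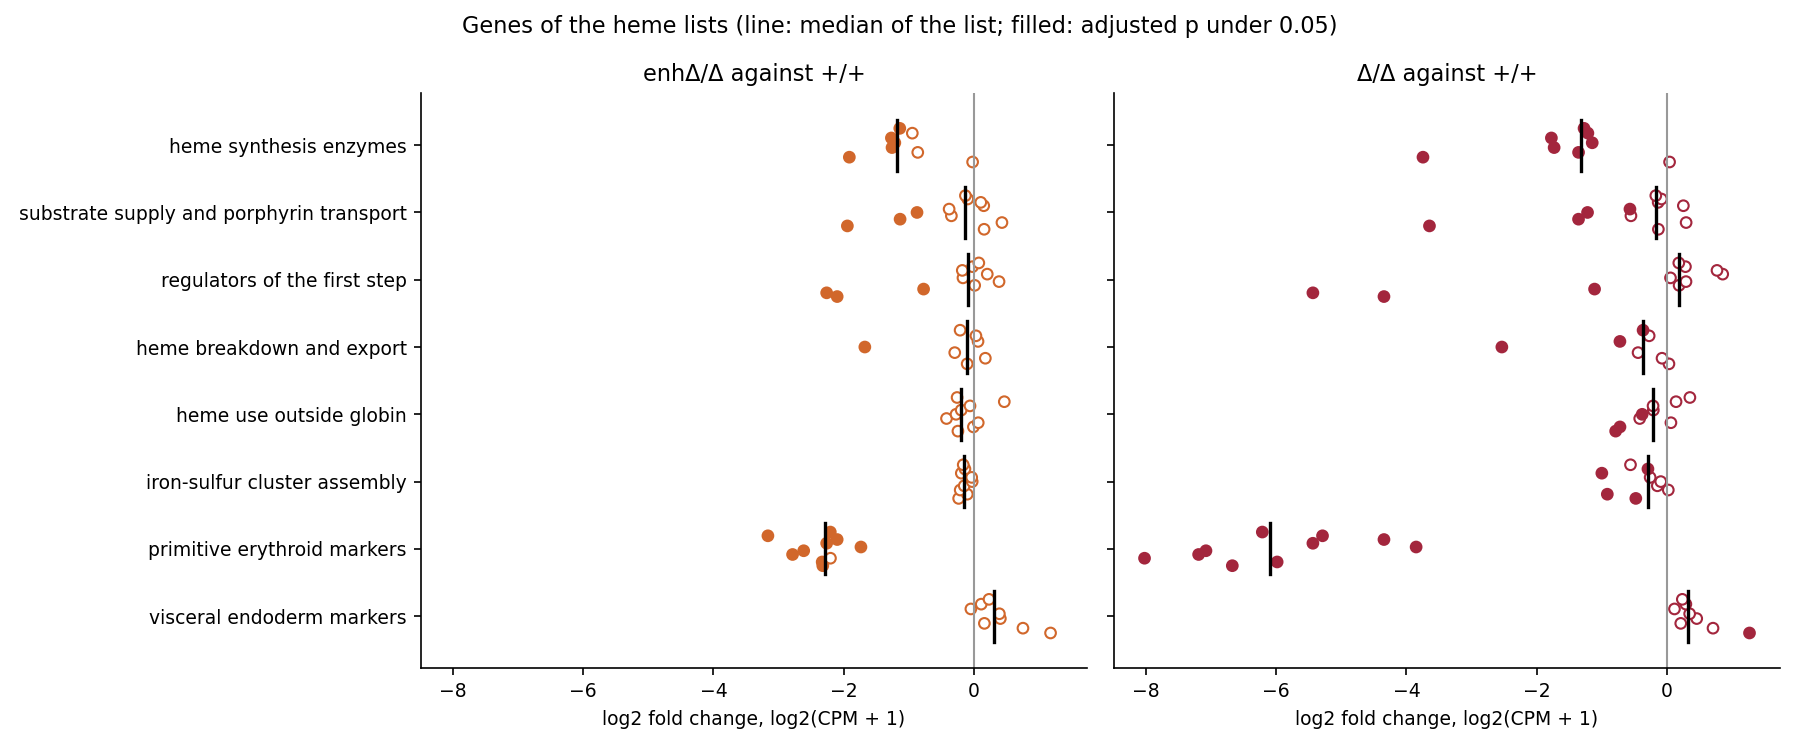
Log2 fold change of each gene (points) in the heme synthesis enzymes, 5 related lists and 2 marker lists, in the compound mutant (Etv2 enhΔ/Δ) and the null (Etv2 Δ/Δ) against Etv2 +/+, with the median of each list as a line and filled points at an adjusted p under 0.05. The enzymes have medians of −1.17 and −1.31 with Alas1 alone near 0, whereas the 5 related lists have medians between −0.36 and 0.19, with Klf1 and Gata1 below Alas2 in the null.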

How the data were processed

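RNA of single yolk sacs (Trio RNA-seq kit, Illumina sequencing) gave 31 libraries, and groups are the labelled genotypes. For alignment to mm9 the authors used STAR 2.5.2a after trimming, and featureCounts with the Ensembl annotation for read counting. The values used are the authors' deposited log2(CPM + 1), scaled with edgeR normalization factors. Every value gave a whole number of reads (100% within 0.01 reads). The table also holds the authors' own fold changes, likelihood ratios, p-values and FDR, which were not used. The processing batch of the authors' model is in no label and could not be a term.

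The model, limma 3.58.1 in R 4.3.3 with a mean-variance trend, had terms for genotype and the sex in the labels and 24 residual degrees of freedom. It took in all 18477 genes without a filter and gave 9 comparisons and an F test over 6 genotypes, with Benjamini-Hochberg adjustment over all genes. SE is that of the fitted difference, and fold changes on the log2(CPM + 1) scale understate those of low genes. The Alas2 minus Alas1 difference was tested by two-sided exact permutation with Python 3.11.15 and numpy 2.4.6. The script was tested on simulated data. Named genes were the 8 members, the 3 largest changes among those called in each list, and the 5 genes most like Alas2 and Alas1. Members, lists and tests were chosen with earlier results of these data known. Exon lengths and overlaps came from GENCODE vM1 on mm9, and promoter windows from RefSeq, for 7 of the 8 members (Fech was not searched). Alternatives were no sex term, sex from reads, only genes whose mean log2 reached 1, quantile normalization, log2(CPM + 0.25), voom, only the groups compared, the replicate block, terms for Ftl2-ps (over 10 CPM) or mitochondrial share, and each library left out. Leaving out the 4 libraries whose reads disagree with their labelled sex was added after the data were seen. 1 gene that the naming rule includes is not reported here.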

Additional observations from a re-analysis of the deposited data

Results flagged for a closer look

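Ppox in Etv2 +/+ replicate 4 stood apart from its group, at 3.12 on the log2(CPM + 1) scale (7.71 CPM) against 4.20 to 4.72 (17.3 to 25.4 CPM) in the other 5 libraries. The gap to the nearest library was 0.670 of the range of the group, over Dixon's limit of 0.625 for 6 samples. It was the 1 of 54 groups tested that passed this limit, and chance alone would give about 2.7. Without this library, Ppox passed in Etv2 enhΔ/Δ against Etv2 +/+ (−1.14, limma adjusted p = 0.0267). It also passed there without Etv2 +/enhΔ replicate 2, a library of neither group (−0.97, limma adjusted p = 0.0409).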

How the results depend on the processing

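No result changed direction while passing its test under any alternative. Adding the Ftl2-ps split as a term, 3 members instead of 5 were lower in the compound mutant against Etv2 +/+, since Uros (−1.26, adjusted p = 0.0525) and Urod (−1.10, adjusted p = 0.110) were lost in limma, at differences close to the −1.25 and −1.21 without the term. With the mitochondrial share as a term, 2 members instead of 1 were lower in the null against the compound mutant, 3 instead of 5 in the compound mutant against Etv2 +/Δ and 0 instead of 3 in the compound mutant against Etv2 enhΔ/enhΔ. The last count was also 0 with only the 2 groups compared, and the count against Etv2 +/Δ was 3 with voom and 2 without the 4 libraries labelled male with Xist reads; the cause was not tested. Leaving out single libraries gave 1 to 2 members in the null against the compound mutant, 2 to 6 in the compound mutant against Etv2 +/Δ, 1 to 4 in the compound mutant against Etv2 enhΔ/enhΔ, 5 to 6 in the compound mutant against Etv2 +/+ and 7 in both comparisons of the null with Etv2 +/+ and Etv2 +/Δ. Alas2 minus Alas1 then ran from −0.94 to −0.56 in Etv2 enhΔ/enhΔ against Etv2 +/+ and from −1.30 to −0.92 in the compound mutant against Etv2 enhΔ/enhΔ. With only the libraries of low Ftl2-ps, which leave 1 wild-type library, Alas2 minus Alas1 differed from it by −0.083 in Etv2 enhΔ/enhΔ (adjusted p = 1), −1.18 in the compound mutant and −3.04 in the null (adjusted p = 0.25 each, exact test), a size at which no call is possible.

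The count of genes called lower over the table, to which the members are compared, was 183 in the compound mutant against Etv2 +/+ and 69 to 198 under the other settings that left out no single library, 1420 and 588 to 1584 in the null, 620 and 377 to 679 in the null against the compound mutant, 161 and 50 to 230 in the compound mutant against Etv2 +/Δ, 1402 and 858 to 1550 in the null against Etv2 +/Δ, 186 and 13 to 283 in the compound mutant against Etv2 enhΔ/enhΔ, 4 and 0 to 5 in Etv2 +/Δ and 3 and 0 to 4 in Etv2 enhΔ/enhΔ against Etv2 +/+, and 2228 and 1444 to 2396 in the F test. The replicate numbers do not pair the libraries: deviations from the group means of libraries with the same number correlated at a median of −0.01 (−0.14 to 0.16 over 71 pairs), and 1 of 31 libraries was closest to its own number. The replicate block left the member counts at 5 in the compound mutant and 7 in the null against Etv2 +/+ and changed no call of a member. Alas2 in the null rests on 88 reads, which limits the precision of its fold change.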
